A study of Mus musculus with 4 samples.

Results

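The genes described here were 38 genes of the endoplasmic reticulum (ER), the compartment where secreted and membrane proteins fold: its chaperones, its folding enzymes, the sensors of the unfolded protein response, and the factors that degrade what does not fold. They were chosen by symbol from a fixed list, with 1 transcript row per gene, that of the highest mean, and were 38 of 14193 genes with a name in the deposited tables. All 38 had a row and all passed the filter for testing, a mean of at least 1 RPKM (reads divided by the length of the transcript and the size of the library), which 10688 genes passed. They were measured by RNA-seq in regulatory T (Treg) cells sorted from the spleen of C57BL/6 mice, in 2 wild-type (WT) libraries and 2 libraries from mice with a Treg conditional knockout (cKO) of Nsd2, a methyltransferase of histone H3 lysine 36. Each library was a pool of RNA from at least 3 mice, read as 50-nt single ends. The promoter that drives the deletion, the exons it removes and the age of the mice are not stated in the labels used here.

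Proteins enter the ER through the Sec61 channel, are held by the Hsp70-type chaperone BiP (Hspa5) and its partners, are glycosylated, and gain disulfide bonds from the protein disulfide isomerases. When unfolded protein builds up, Ern1 (IRE1), Eif2ak3 (PERK) and Atf6 signal to the nucleus. Ern1 splices Xbp1 mRNA, Eif2ak3 slows translation while favouring that of Atf4, and cleaved Atf6 is itself a transcription factor. Their targets include the chaperones and the factors of ER-associated degradation, and T cells that secrete cytokines or divide are known to use the pathway.

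Part of this response is read from the promoters of the genes. The ER stress response element (ERSE: CCAAT, then 9 bases of any kind, then CCACG), to which NF-Y and Atf6 bind, was searched on both strands of the RefSeq promoter windows of GRCm38.p6, from 250 bases before to 50 after each start. Windows matched 31 of the 38 genes. For 26 of the 31, the end of a window was found on the sense strand of a GENCODE M21 transcript of the gene. For the others it was not, so their starts were not checked in this way. An exact ERSE lay in the window of 8 of these 31, which is 25.8%, against 0.119% of all 32851 windows and 0.137% of all 27025 genes with one. Several of these genes are textbook targets of the element, so the share describes the list. The 9 matches in the 8 genes are shown because they let the same element be compared across chaperones, folding enzymes and the degradation factor Syvn1; the windows of the other 23 genes held no exact match. Each is written 5′ to 3′ on the strand of the gene, with the element in capitals; where it reads on the opposite strand, the capitals begin with CGTGG.
Hspa5, chr2:34772013-34772055, + strand: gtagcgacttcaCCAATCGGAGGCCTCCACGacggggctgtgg
Hsp90b1, chr10:86705626-86705668, - strand: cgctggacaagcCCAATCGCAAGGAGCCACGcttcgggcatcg
Hsp90b1, chr10:86705521-86705563, - strand: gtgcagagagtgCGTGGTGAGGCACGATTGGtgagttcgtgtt
Calr, chr8:84847063-84847105, - strand: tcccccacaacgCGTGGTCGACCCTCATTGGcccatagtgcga
Canx, chr11:50325788-50325830, - strand: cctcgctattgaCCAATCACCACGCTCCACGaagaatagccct
Pdia6, chr12:17266479-17266521, + strand: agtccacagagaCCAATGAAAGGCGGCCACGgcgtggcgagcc
Dnajc3, chr14:118937815-118937857, + strand: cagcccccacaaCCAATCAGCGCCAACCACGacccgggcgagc
Creld2, chr15:88819508-88819550, + strand: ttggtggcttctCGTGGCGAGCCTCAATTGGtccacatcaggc
Syvn1, chr19:6046520-6046562, + strand: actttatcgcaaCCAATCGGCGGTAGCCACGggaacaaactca

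The elements began at -65 in Hspa5, at -212 and -107 in Hsp90b1, at -162 in Calr and at -44 in Syvn1, counted from -1 as the last base before the start. Creld2 lies beside Alg12 on the opposite strand, the 2 windows overlap, and the same element was found in both. The related ERSE-II (ATTGG, then any base, then CCACG; both strands here and below) was in 2 of the 31 genes and in 0.0365% of all windows. It lay 52 to 42 bases before the start of Herpud1 and 8 to 18 bases after the start of Dnajb11, where it spans chr16:22857852-22857862 (+ strand). Neither gene had an exact ERSE. The element of the amino acid response that Atf4 reads, searched as TTGCATCA, was in Herpud1 alone among the 31 and in 0.895% of all windows. The unfolded protein response element TGACGTGG was in 0 of the 31 windows and in 0.676% of all. Herpud1 thus carried elements of both kinds, of which the ERSE-II is shown in capitals.
Herpud1, chr8:94386365-94386399, + strand: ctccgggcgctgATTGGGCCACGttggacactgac

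The 250 bases before the start of Hspa5 and of Hsp90b1, the 2 main chaperones, are shown whole, with the exact elements in capitals.
Hspa5, chr2:34771840-34772089, + strand: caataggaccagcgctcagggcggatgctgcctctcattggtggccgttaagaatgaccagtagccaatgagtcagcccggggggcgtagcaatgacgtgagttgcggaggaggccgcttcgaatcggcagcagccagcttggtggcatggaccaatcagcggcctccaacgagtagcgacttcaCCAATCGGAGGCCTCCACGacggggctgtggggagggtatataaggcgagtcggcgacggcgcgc
Hsp90b1, chr10:86705445-86705694, - strand: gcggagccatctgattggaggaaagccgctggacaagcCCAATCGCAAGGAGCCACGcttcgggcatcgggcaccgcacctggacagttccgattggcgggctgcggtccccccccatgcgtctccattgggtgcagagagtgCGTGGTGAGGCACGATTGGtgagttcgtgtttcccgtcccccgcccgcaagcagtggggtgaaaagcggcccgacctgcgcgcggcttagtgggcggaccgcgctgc

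Before the comparison, the libraries were checked against their labels. Nsd2, listed as Whsc1, was at 6.82 and 7.44 RPKM in the WT pools and 3.46 and 4.27 RPKM in the cKO pools, so that cKO had 54.2% of the WT level on average (log2 fold change -0.74, limma, adjusted p = 0.9998). Foxp3, which defines Treg cells, stood between 113 and 145 RPKM. Low values moved in steps, from which a depth of 19125000 to 21255000 reads per library was estimated. By this estimate the 38 genes rested on about 41 reads (Trib3 in its lowest library) to 8141 reads (Calr in its highest). Other cells with much ER were looked for: of 10 plasma cell markers, 4 were tested, 3 had a mean under 1 RPKM (Sdc1, Jchain and Derl3) and 3 had no row, and the summed level was 48.8 and 51.9 RPKM in the WT pools and 52.1 and 49.1 RPKM in the cKO pools. Xbp1, itself among the 38 genes, made up most of that sum. Also tested were Irf4, Prdm1 and Pou2af1, of which Irf4 and Prdm1 are found in effector Treg cells too, so the sum is no measure of plasma cells. The defining markers Jchain and Sdc1 were under 0.3 RPKM in each library. The 5 B cell markers with a row summed to 8.75 and 6.98 RPKM in the WT pools and 11.9 and 11.1 RPKM in the cKO pools, and the 8 macrophage markers to 10.4, 15.1, 27.9 and 9.08 RPKM in WT replicates 1 and 2 and cKO replicates 1 and 2. In the same order, 4 erythroid markers summed to 24.3, 11.4, 42.7 and 7.32 RPKM, and 4 markers of CD8 T and NK cells to 20.1, 15.3, 17.6 and 19.6 RPKM. Most of the latter was Nkg7 (7.96 to 12.7 RPKM over the libraries) and Cd8b1 (5.22 to 6.91 RPKM). Cd8a was at 0.149 to 0.395 RPKM and Klrb1c at 0.332 to 0.577 RPKM, and Ncr1 had no row. The 3 B cell markers tested (Cd79a, Cd79b and Cd22) were each higher in both cKO pools. The part of these cells in the values below was not tested.

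The comparison of cKO with WT asks what the loss of Nsd2 does to the ER folding program of splenic Treg cells. None of the 38 genes passed the test (limma on log2(RPKM + 1), adjusted p under 0.05), and the background was 0% of the 10688 genes tested. With limma, 0 of the 38 had an unadjusted p under 0.05, where 3.11% of all genes tested had. The lowest was 0.198, for Hsp90b1, with 0.9998 after adjustment. When the replicate number was a block in the limma fit, Dnajb9 (unadjusted p = 0.0192) and Hsp90b1 (0.0455) were under 0.05. None of the 38 passed after adjustment there either, and the share of all genes tested under that block is not given here. The cKO pools were both higher than both WT pools for 3 of the 38 genes, which is 7.89%, against 17.4% of all genes tested. They were both lower for another 3, against 9.06% of all genes tested, and the genotypes overlapped for 32, against 73.6%. The 3 higher ones were Sec61b, Atf6 and Atf4, and the 3 lower ones Hsp90b1, Ddit3 and Ppp1r15b. With median-of-ratios scaling the lower ones were 6. The share of all genes tested under that scaling is not given here, and the 9.06% does not apply to it. The log2 fold changes ran from -0.26 to 0.16 with a median of -0.015, where the median of all genes tested was 0.029, and 16 of 38 were above 0, against 59.1% of all genes tested.

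The width of each estimate was read from its 95% interval. Each interval is for 1 gene taken singly, under a fit with genotype alone as a term, and they do not hold jointly for the 38. The 95% interval of the fold change on the scale of RPKM + 1, from limma with 2 libraries per genotype, lay within 1.5-fold in either direction for 35 of the 38 genes, against 72.7% of all genes tested, which are lower in level than these 38, whose median was 24.2 RPKM. It lay within 2-fold for all 38 genes and for 96.7% of all genes tested. The 3 genes whose interval reached past 1.5-fold were Hsp90b1, Dnajb9 and Hspa13, for which a decrease of over 1.5-fold could not be told from none. Adding 1 RPKM shrinks the changes and intervals of low genes, such as the 3 sensors and Trib3. With 0.1 added instead, the log2 fold change of Trib3 was 0.12 in place of 0.07, and that of Atf6 0.176 in place of 0.135. For such genes the intervals do not hold for RPKM itself. Standard errors of the log2 fold change ran from 0.12 to 0.26. For 33 of the 38 genes the difference between the genotype means was smaller than the larger SD within a genotype, as it was for 72.7% of all genes tested.

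**Figure D1:**
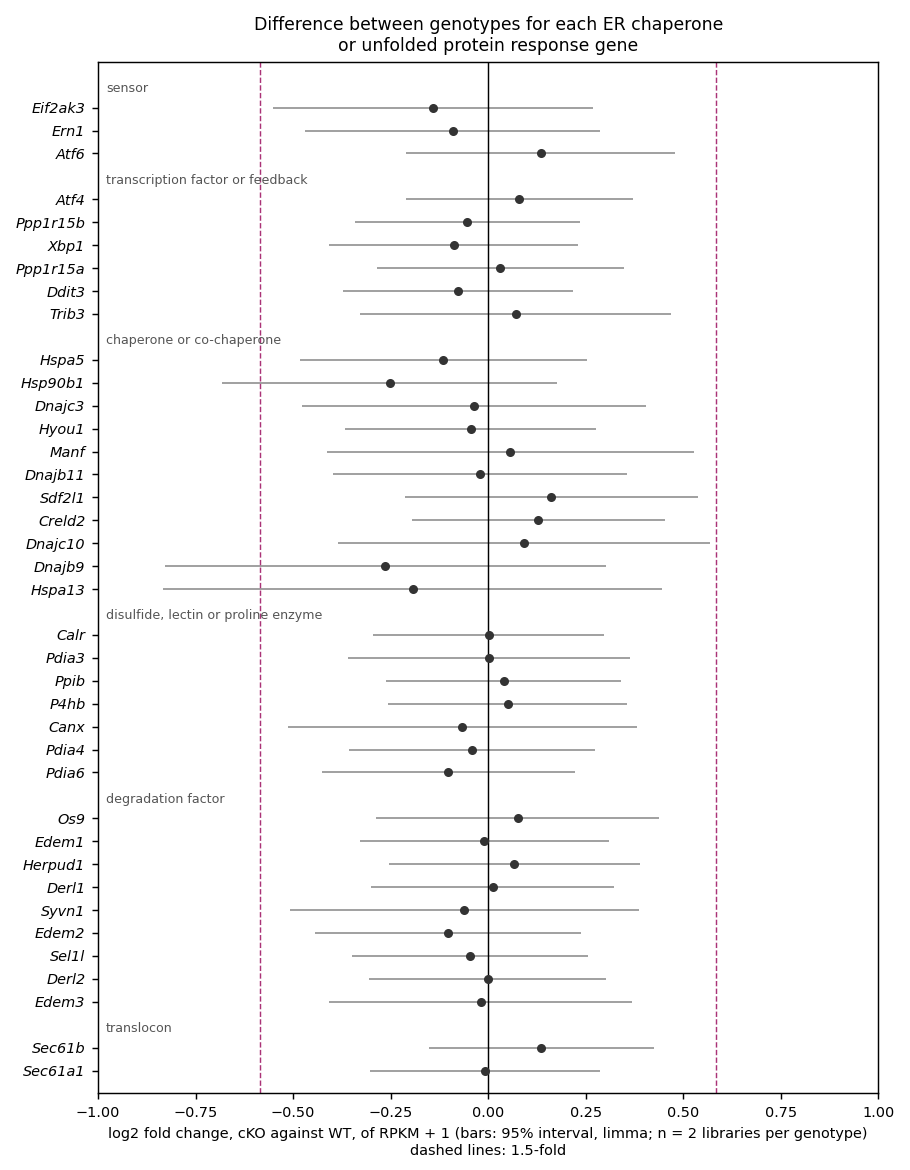
Log2 fold change of cKO against WT (x axis, of RPKM + 1) for each of the 38 genes (y axis, by role); points are limma estimates, bars their 95% intervals (2 libraries per genotype) and dashed lines mark 1.5-fold. All 38 bars cross 0, and those of Hsp90b1, Dnajb9 and Hspa13 reach past the dashed line on the lower side.

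The 3 sensors were low and differed little. Eif2ak3 (PERK, GRCm38 chromosome 6, 70844484 to 70905241), the kinase of the translation factor eIF2 alpha, stood at 5.77 and 7.24 RPKM in WT replicates 1 and 2 and 5.26 and 6.31 RPKM in cKO replicates 1 and 2. The groups overlapped, and both libraries numbered 2 were the higher ones. Ern1 (IRE1, chromosome 11, 106397620 to 106487796), the kinase and nuclease that splices Xbp1, stood at 3.34 and 2.68 RPKM in the WT pools and 2.77 and 2.73 RPKM in the cKO pools. WT replicate 1 was the highest and the other 3 libraries were close together. Atf6 (chromosome 1, 170704457 to 170868585), the membrane-bound transcription factor, stood at 2.57 and 2.64 RPKM in the WT pools and 2.82 and 3.10 RPKM in the cKO pools. Its groups did not overlap, with means of 2.61 ± 0.0544 and 2.96 ± 0.196 RPKM (SD, n = 2 each), a ratio of 1.14. The log2 fold change of Atf6 was 0.13, and its standard error 0.14 (limma, adjusted p = 0.9998).

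Among the transcription factors of the response, Atf4 was the most abundant per length. Atf4 (chromosome 15, 80255184 to 80257545), whose translation is favoured when eIF2 alpha is phosphorylated, stood at 58.2 and 56.3 RPKM in the WT pools and 60.9 and 60.3 RPKM in the cKO pools. Both cKO libraries were the higher ones, by a mean ratio of 1.06. Ddit3 (Chop, chromosome 10, 127290793 to 127296291), a transcription factor tied to cell death under lasting stress, stood at 18.2 and 17.8 RPKM in the WT pools and 17.8 and 16.3 RPKM in the cKO pools. Its groups were apart only in the fourth digit, 17.81 RPKM in WT replicate 2 against 17.79 RPKM in cKO replicate 1. The standard errors of the log2 fold changes of Atf4 (0.08) and Ddit3 (-0.08) were both 0.12.

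Xbp1 (chromosome 11, 5520641 to 5525993), the main transcription factor of secretory cells, stood at 31.9 and 33.3 RPKM in the WT pools and 32.6 and 28.7 RPKM in the cKO pools. The groups overlapped, with cKO replicate 2 the lowest library. This level says nothing of Ern1's activity, since the tables held 1 row for Xbp1, and Ern1 acts on it by cutting 26 bases out of its mRNA, which turns the reading frame to that of the active factor. The 26 bases, found in exon 4 of the GENCODE M21 transcript by the cut sites CCGCAG before them and CTGCAG at their end, are in capitals. They lie in the coding sequence, and the level of the row does not tell mRNA with them from mRNA without them.
Xbp1, chr11:5524267-5524322, + strand: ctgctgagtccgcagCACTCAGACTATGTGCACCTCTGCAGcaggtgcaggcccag

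The genes that close the response differed as little. Ppp1r15a (Gadd34), the stress-induced subunit of the phosphatase that restores eIF2 alpha, stood at 18.5 and 16.8 RPKM in the WT pools and 19.0 and 17.1 RPKM in the cKO pools. Ppp1r15b (CReP), its constitutive counterpart, stood at 33.4 and 32.5 RPKM in the WT pools and 31.6 and 31.8 RPKM in the cKO pools, groups apart by less than 1 RPKM. Per length the constitutive subunit was the higher of the pair in all 4 libraries. Trib3, a pseudokinase target of Chop, was the least abundant of the 38 genes, at 1.499 and 1.07 RPKM in the WT pools and 1.47 and 1.31 RPKM in the cKO pools. At about 41 to 59 reads a library, counting alone gives Trib3 an SD of 15.5% in its lowest library.

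**Figure D2:**
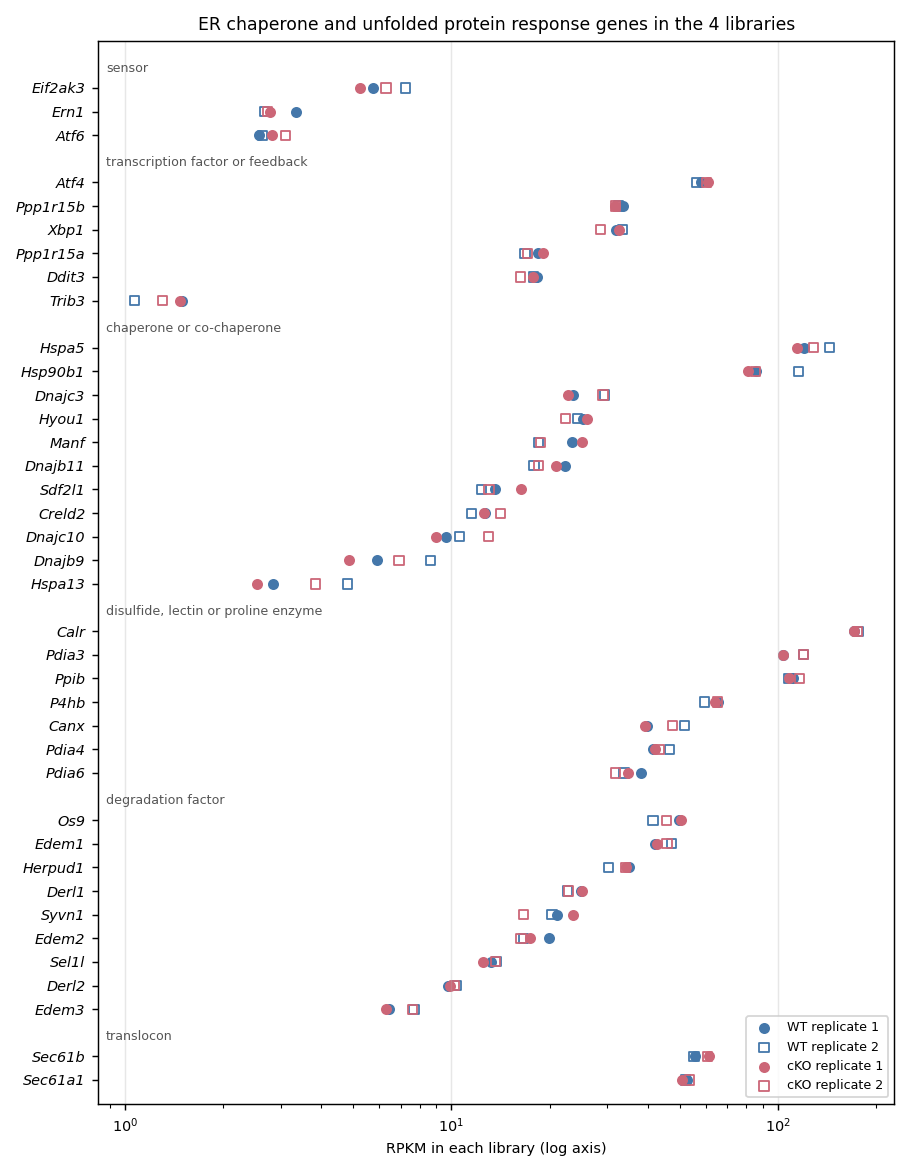
RPKM (x axis, log scale) of each of the 38 genes (y axis, by role) in the 4 libraries; circles are replicate 1, open squares replicate 2, blue is WT and red cKO. The genes span 1.07 RPKM (Trib3, WT replicate 2) to 176 RPKM (Calr, WT replicate 2), and the colours overlap in most rows.

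Of the 11 chaperones and co-chaperones, Hspa5 and Hsp90b1 lay in the top 10% of the genes tested by level per length, and Hspa13 was above only 19.0% of them. In all, 9 of the 38 genes lay in that top 10%; the others were Calr, Pdia3, Ppib, P4hb, Atf4, Sec61b and Sec61a1. Hspa5 (BiP, chromosome 2, 34772090 to 34776529), the Hsp70-type chaperone of the ER lumen that also holds the sensors inactive, stood at 120.1 and 144 RPKM in the WT pools and 114 and 129 RPKM in the cKO pools. The groups overlapped and the libraries numbered 2 were the higher ones in each genotype. The log2 fold change of Hspa5 was -0.11 with a 95% interval from -0.48 to 0.25 (limma, adjusted p = 0.9998), a fold of 0.716 to 1.19. Hyou1 (Grp170), which exchanges nucleotide on BiP, stood at 25.4 and 24.4 RPKM in the WT pools and 25.9 and 22.3 RPKM in the cKO pools, within 1.16-fold over the 4 libraries.

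Hsp90b1 (Grp94, chromosome 10, 86690841 to 86705444), the Hsp90-type chaperone of the ER that folds integrins and Toll-like receptors, had the lowest p of the 38 genes. It stood at 85.5 and 115 RPKM in the WT pools and 81.2 and 85.3 RPKM in the cKO pools. WT replicate 2 was high, while WT replicate 1 and cKO replicate 2 were nearly equal. The means were 100.5 ± 21.1 and 83.2 ± 2.92 RPKM (SD, n = 2 each), and the log2 fold change was -0.25, with 0.17 as its standard error. The log2 fold change of Hsp90b1 was -0.04 without WT replicate 2 and -0.47 without WT replicate 1 (limma, adjusted p = 1 and 0.999).

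WT replicate 2 was also the library in which a list of heat shock genes outside the ER was high. Most of them are cytosolic, but Hspd1 and Hspe1 are mitochondrial chaperonins and Hsf1 is a transcription factor. Of the 13 tested, 10 had their highest value there, Hspd1 and Hspe1 among them. That was so for 20.9% of all genes tested and 14 of the 38 ER genes. Replicate 2 of cKO was the lowest library for 8 of the 13, against 18.2% of all genes tested. Hspa8, the constitutive cytosolic Hsp70, stood at 887 and 1197 RPKM in the WT pools and 751 and 677 RPKM in the cKO pools. Hsp90ab1, the cytosolic Hsp90, had 727 and 1005 RPKM in the WT pools and 637.5 and 542 RPKM in the cKO pools. Hsph1, a nucleotide exchange factor of Hsp70, had 40.1 and 104 RPKM in the WT pools and 32.9 and 23.3 RPKM in the cKO pools. The heat shock list had a median log2 fold change of -0.30, and 0 of its genes passed the limma test, with 3 under an unadjusted p of 0.05. Of the 13, 5 were lower in both cKO pools and 1 higher, against 9.06% and 17.4% of all genes tested. The 14 heat shock genes with a row summed to 2058, 2979, 1834 and 1647 RPKM in WT replicates 1 and 2 and cKO replicates 1 and 2. In the same order, the 38 ER genes summed to 1418, 1480, 1407 and 1448 RPKM. Whether the high value of Hsp90b1 in WT replicate 2 shares a source with those of the heat shock genes was not tested.

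**Figure D3:**
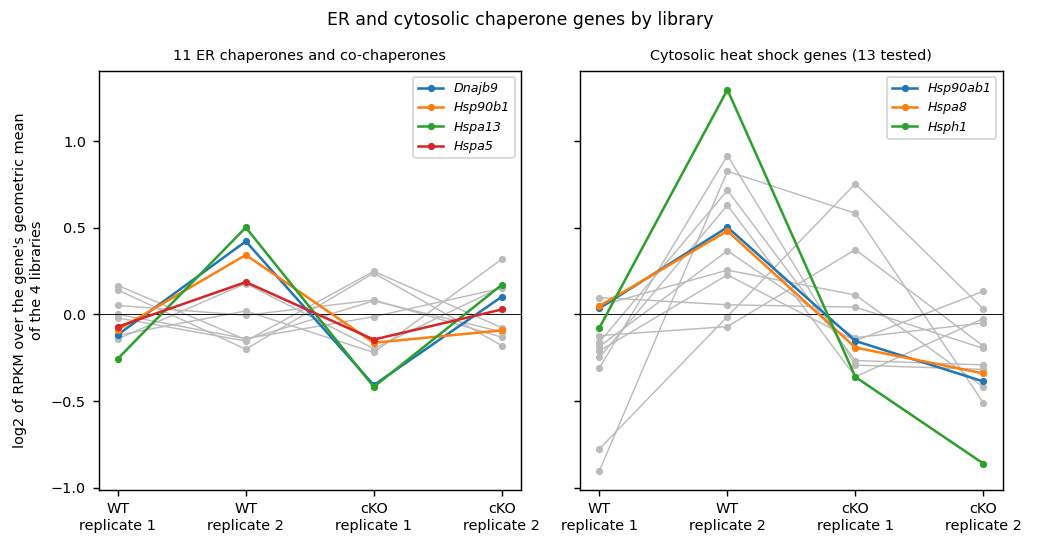
Log2 of RPKM over each gene's geometric mean of the 4 libraries (y axis). Left: 11 ER chaperones and co-chaperones. Right: 13 heat shock genes outside the ER, mostly cytosolic, with Hspd1 and Hspe1 mitochondrial. Lines join the values of 1 gene and imply no order of the libraries. Hsph1, at 104 RPKM in WT replicate 2 and 23.3 RPKM in cKO replicate 2, spans a wider range than any of the ER genes, of which Hspa13 spans the most, 1.89-fold.

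The J-domain proteins, which pass clients to BiP, varied by replicate number more than by genotype. Dnajb9 (ERdj4), which also returns Ern1 to its inactive state, stood at 5.93 and 8.62 RPKM in the WT pools and 4.85 and 6.91 RPKM in the cKO pools. The libraries numbered 2 were the higher ones in both genotypes, and the groups overlapped. Its log2 fold change of -0.26, the lowest of the 38, had a 95% interval from -0.83 to 0.30. It was -0.03 without WT replicate 2, -0.05 without cKO replicate 1, -0.50 without WT replicate 1 and -0.48 without cKO replicate 2, with adjusted p-values in limma from 0.984 to 1. Dnajc3 (p58IPK) followed the same order, at 23.6 and 29.5 RPKM in the WT pools and 22.7 and 29.1 RPKM in the cKO pools. Dnajb11 (ERdj3), which carries the ERSE-II, ran the other way, with 22.2 and 17.9 RPKM in the WT pools and 20.9 and 18.5 RPKM in the cKO pools. Dnajc10 (ERdj5), which reduces disulfides for degradation, was highest in cKO replicate 2, at 13.0 RPKM against 9.59, 10.6 and 8.95 RPKM in WT replicates 1 and 2 and cKO replicate 1.

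Hspa13 (Stch), an Hsp70 relative of microsomes, had the widest spread, at 2.85 and 4.82 RPKM in the WT pools and 2.55 and 3.83 RPKM in the cKO pools. Replicate 2 was 1.69-fold above replicate 1 in WT and 1.504-fold in cKO, while the ratio of cKO to WT was 0.832. Sdf2l1, a partner of BiP and ERdj3, stood at 13.6 and 12.3 RPKM in the WT pools and 16.3 and 13.0 RPKM in the cKO pools. Its log2 fold change of 0.16 was the highest of the 38 and was 0.01 without cKO replicate 1 (limma, adjusted p = 0.9998 both times). Creld2, a secreted ER stress protein, stood at 12.7 and 11.5 RPKM in the WT pools and 12.6 and 14.1 RPKM in the cKO pools, and Manf, a secreted factor of the stressed ER, at 23.4 and 18.5 RPKM in the WT pools and 25.1 and 18.8 RPKM in the cKO pools. The groups of Hspa13, Sdf2l1, Creld2 and Manf all overlapped.

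Libraries of the same genotype were further apart than the genotype means, which each average 2 libraries. Over the 38 genes the median absolute log2 difference was 0.15 between the WT libraries and 0.126 between the cKO libraries, and 0.067 between the genotype means. The same medians over all genes tested were 0.175, 0.193 and 0.086. In 32 of the 38 genes replicate 2 differed from replicate 1 in the same direction in both genotypes, 16 higher and 16 lower; this was so for 77.4% of all genes tested. The labels do not say what the numbers stand for. The highest of the 4 libraries was WT replicate 1 for 9 of the 38 genes (17.9% of all genes tested). It was replicate 2 of WT for 14 (20.9%), replicate 1 of cKO for 9 (29.4%) and replicate 2 of cKO for 6 (31.8%). The lowest was replicate 1 of WT for 5 genes (21.4%), replicate 2 of WT for 14 (32.8%), replicate 1 of cKO for 13 (27.6%) and replicate 2 of cKO for 6 (18.2%).

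**Figure D4:**
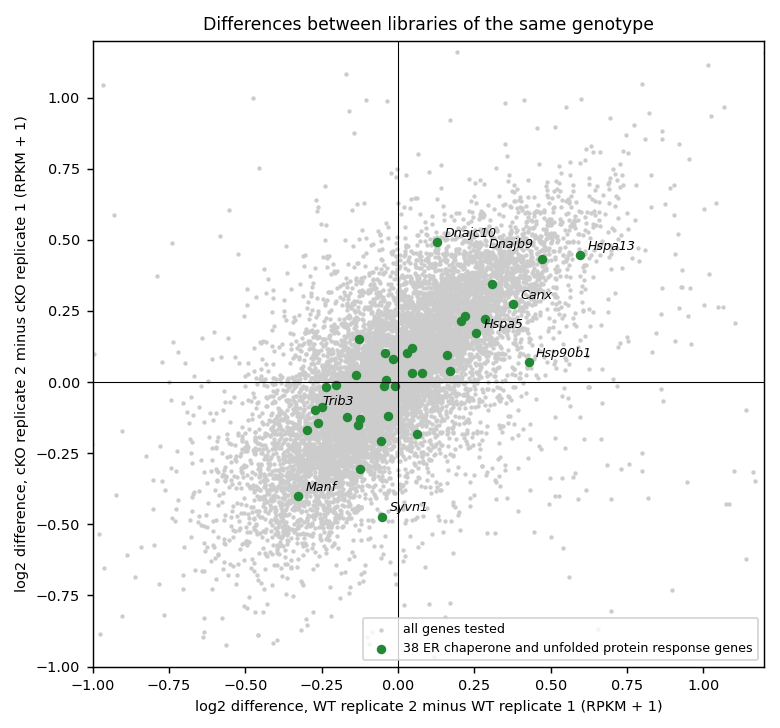
Log2 difference of replicate 2 minus replicate 1 (of RPKM + 1) in WT (x axis) and in cKO (y axis), for the 38 genes (green) and all genes tested (grey; 132 of 10688 lie outside the axes). Of the 38 genes, 32 lie in the lower left or upper right corner, where both differences have the same sign, with Hspa13 and Dnajb9 at the upper right and Manf at the lower left.

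The disulfide isomerases, lectin chaperones and the prolyl isomerase had log2 fold changes from -0.10 to 0.05, and 7 of 7 had overlapping groups, where 73.6% of all genes tested had. Calr (calreticulin, chromosome 8, 84842088 to 84846931), the soluble lectin chaperone of glycoproteins, was the most abundant of the 38 genes, at 170.5 and 176 RPKM in the WT pools and 171 and 175 RPKM in the cKO pools. Those 4 values lay within 1.03-fold, and the 95% interval of the genotype difference was a fold of 0.815 to 1.23. Canx (calnexin), its membrane-bound counterpart, stood at 39.6 and 51.8 RPKM in the WT pools and 39.2 and 47.6 RPKM in the cKO pools. Pdia3 (ERp57), the isomerase that works with both lectins, stood at 103 and 119 RPKM in the WT pools and 103 and 120.0 RPKM in the cKO pools, so that for Canx and Pdia3 the libraries numbered 2 were the higher ones.

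P4hb, the archetypal protein disulfide isomerase, stood at 65.6 and 59.5 RPKM in the WT pools and 64.2 and 65.3 RPKM in the cKO pools. Pdia4 (ERp72) stood at 41.3 and 46.6 RPKM in the WT pools and 42.1 and 43.2 RPKM in the cKO pools, and Pdia6 (P5) at 38.003 and 33.7 RPKM in the WT pools and 34.8 and 31.9 RPKM in the cKO pools. Pdia6, with an ERSE at -98, had a log2 fold change of -0.10 (standard error 0.13). Ppib (cyclophilin B), which turns proline bonds, stood at 111 and 108 RPKM in the WT pools and 108 and 116 RPKM in the cKO pools. In P4hb, Pdia4, Pdia6 and Ppib alike, the genotype means were closer than the larger SD.

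All 9 degradation factors had overlapping groups, as had 73.6% of all genes tested. Edem1, a lectin that hands misfolded glycoproteins on for degradation, was at 42.0 and 47.1 RPKM in the WT pools and 42.7 and 45.7 RPKM in the cKO pools. Its relatives were lower per length, with Edem2 between 16.3 and 19.9 RPKM and Edem3 between 6.32 and 7.68 RPKM over the 4 libraries. Os9, a lectin of the degradation complex, ranged from 41.4 to 50.5 RPKM. Syvn1 (Hrd1), the ubiquitin ligase of that complex, was the most spread of the 9, at 21.1 and 20.3 RPKM in the WT pools and 23.5 and 16.7 RPKM in the cKO pools. Its adaptor Sel1l ranged from 12.5 to 13.7 RPKM. Derl1 ranged from 22.7 to 25.1 RPKM and Derl2 from 9.77 to 10.4 RPKM, both of them candidates for the channel through which clients leave. Herpud1, which helps to build the complex and carries both an ERSE-II and the Atf4-type element, stood at 35.0 and 30.3 RPKM in the WT pools and 34.3 and 34.1 RPKM in the cKO pools. The log2 fold changes of the 9 ran from -0.10 to 0.08.

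Of the channel subunits, Sec61b (chromosome 4, 47474661 to 47483233) was the gene with the second lowest p of the 38. It stood at 55.7 and 55.3 RPKM in the WT pools and 61.4 and 60.8 RPKM in the cKO pools. The cKO libraries were both higher, with means of 55.5 ± 0.253 and 61.1 ± 0.431 RPKM (SD, n = 2 each) and a ratio of 1.10. The log2 fold change of Sec61b was 0.14 with a 95% interval from -0.15 to 0.43 (limma, adjusted p = 0.9998). That interval rests on a spread moderated toward that of other genes, not on these SDs alone. Sec61a1, the pore itself, stood at 52.7 and 52.2 RPKM in the WT pools and 50.7 and 53.7 RPKM in the cKO pools, with overlapping groups.

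Genes with and without an ERSE covered overlapping ranges of the genotype difference. The 8 genes with the element had log2 fold changes from -0.25 (Hsp90b1) to 0.13 (Creld2) with a median of -0.06, and the 23 with a window and no exact element from -0.26 to 0.16 with a median of -0.001. Both cKO pools were lower for 1 of the 8 (Hsp90b1) and 1 of the 23, against 9.06% of all genes tested. They were both higher for 0 of the 8 and 2 of the 23, against 17.4%. In all, 37 genes of the annotation had an exact ERSE, 13 of them were tested, 0 passed the limma test, and the 5 that are not among the 38 ran from -0.11 (Alg12, a mannosyltransferase of the ER) to 0.12. The difference between these sets was not tested.

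Other genes of the pathway, from 5 lists, gave no gene past the threshold either. Over all genes tested, 59.1% had a difference above 0, 17.4% lay higher in cKO with groups apart and 9.06% lower, and the counts are read against these shares. Of 17 further sensors and regulators tested, 13 were above 0 on the log2 scale (59.1% of all genes), the groups of 4 lay higher in cKO (17.4%) and those of 2 lower (9.06%). Tmbim4, an ER and Golgi membrane protein of the Bax inhibitor family, had the lowest p of this list, at 21.1 and 24.3 RPKM in the WT pools and 26.6 and 27.4 RPKM in the cKO pools. Creb3l2, a membrane-bound factor related to Atf6, stood at 5.62 and 4.56 RPKM in the WT pools and 3.98 and 4.03 RPKM in the cKO pools. Crebzf, a bZIP factor, was at 27.6 and 25.7 RPKM in the WT pools and 30.4 and 31.0 RPKM in the cKO pools. Of 15 targets of Atf4 and Chop tested, 12 were above 0 (59.1% of all genes), 5 lay higher in cKO with groups apart (17.4%) and 0 lower (9.06%). These included Cebpb, at 5.89 and 7.81 RPKM in the WT pools and 8.13 and 11.3 RPKM in the cKO pools, Slc7a5, an amino acid transporter, at 15.5 and 14.97 RPKM in the WT pools and 16.9 and 19.1 RPKM in the cKO pools, and Phgdh, of serine synthesis, at 45.5 and 37.5 RPKM in the WT pools and 52.1 and 46.0 RPKM in the cKO pools. Ddit4, an inhibitor of mTOR, went against these, at 187 and 125 RPKM in the WT pools and 142 and 91.0 RPKM in the cKO pools, with groups that overlapped. Chac1 and Nupr1, often used as readouts of Chop, had no row and were not analysed here, and Atf3 was under 0.3 RPKM in each library.

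Of 33 other folding and redox enzymes tested, 8 lay higher in cKO with groups apart (17.4% of all genes) and 2 lower (9.06%), and 1 had an unadjusted p under 0.05 in limma (3.11%). That was Prdx4, a peroxidase of the ER that feeds disulfides to the isomerases, at 9.20 and 7.66 RPKM in the WT pools and 10.5 and 11.7 RPKM in the cKO pools (unadjusted p = 0.0492, adjusted p = 0.9998). Fkbp2, a prolyl isomerase, stood at 12.3 and 8.35 RPKM in the WT pools and 15.8 and 13.2 RPKM in the cKO pools. Of 28 other degradation factors, 2 lay higher (17.4% of all genes) and 7 lower (9.06%). Ubxn4, an ER anchor of the extraction ATPase, was at 21.3 and 25.9 RPKM in the WT pools and 19.4 and 21.1 RPKM in the cKO pools, and Fam8a1, a partner of Hrd1, at 16.0 and 16.7 RPKM in the WT pools and 14.6 and 14.5 RPKM in the cKO pools.

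Of 39 genes of the translocon, signal peptidase and glycosylation, 6 lay higher and 1 lower, where 17.4% and 9.06% of all genes did, so the number higher was near the background. The 3 of lowest p were all on the higher side. Ssr4, a subunit of the translocon-associated complex, stood at 38.5 and 39.3 RPKM in the WT pools and 47.5 and 47.6 RPKM in the cKO pools. Sec11c, a signal peptidase, stood at 43.3 and 46.8 RPKM in the WT pools and 52.1 and 57.8 RPKM in the cKO pools. Krtcap2, of the oligosaccharyltransferase, stood at 48.1 and 43.1 RPKM in the WT pools and 57.9 and 52.4 RPKM in the cKO pools. Both cKO libraries were the higher ones for all 3, and, like Sec61b, none passed the limma test (adjusted p = 0.9998). The medians of the 5 lists ran from -0.008 to 0.052.

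**Figure D5:**
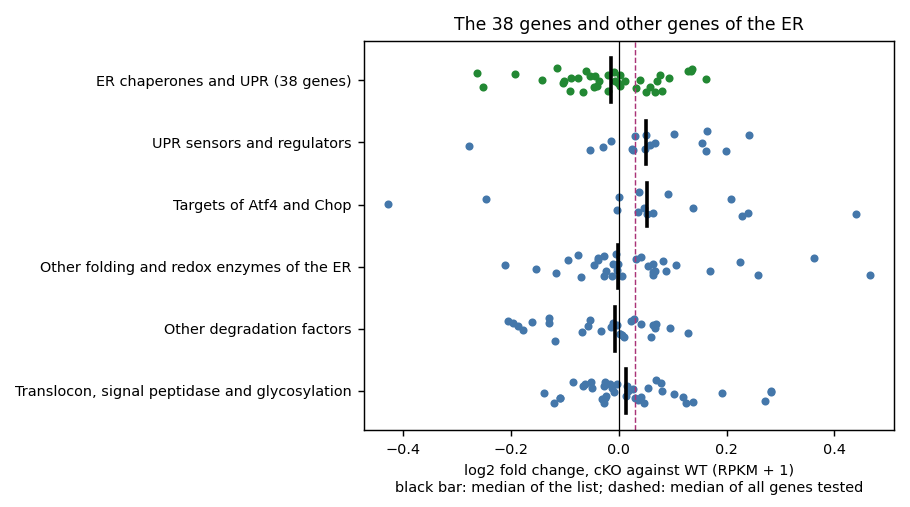
Log2 fold change of cKO against WT (x axis, of RPKM + 1) for the 38 genes and 5 other lists of genes of the ER or its stress response (y axis). Each point is a gene, black bars are medians and the dashed line is the median of all genes tested, 0.029. The medians lie between -0.015 and 0.052, and points of each list fall on both sides of 0.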

How the data were processed

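The authors deposited 1 RPKM value per RefSeq transcript and library. The header names no unit, which was read from the sums, different in each library, and from steps in low values. Per the submitters' processing notes HISAT2, DESeq2 and mm10 were used, with no version or role; not given in the sources used here are the counting tool, its use of strand and its handling of overlapping transcripts, so overlapping or near-identical genes are uncertain. Of 19291 rows, 1169 with no gene name (10.9% of the RPKM sum) stayed out of the tests. Depth was estimated from low values and GENCODE M21 lengths: 61.1% to 63.6% of them lay within 0.1 of a whole read. The lead of the best depth over the next in the range searched was smaller in WT replicates 1 and 2 and cKO replicate 1 than in cKO replicate 2.

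The 38 genes and all lists were chosen with earlier results of these data known. Values in every library were given for the main sensors, factors and chaperones, for the 8 genes of lowest p and for the 5 highest and 5 lowest means; from each other list at most 4 genes of lowest p, starting from the lowest. The test was limma 3.58.1 (R 4.3.3), two-sided, on log2(RPKM + 1) for genes whose mean reached 1 RPKM. It had genotype alone as a term, used trend and robust moderation, and was adjusted over all genes by Benjamini-Hochberg at 0.05. The same fit was run on simulated data with noise independent between libraries. In the real data same-numbered libraries deviated together (correlation 0.51), so the simulation does not show how the test performs here. The log2(RPKM + 1) scale understates changes of low genes. An exact permutation test of 2 against 2 cannot go below 0.333. Each p-value set the genotype difference against a spread between pools, which may be technical. That spread was moderated by limma toward that of other genes. The 38 genes had 5.71 degrees of freedom, of which 2 came from their own libraries. The alternatives were another pseudocount, filters, scaling, summed transcripts, plain moderation, the replicate number as a block and each library left out. Tables and figures used Python 3.11.15, pandas 2.3.3 and matplotlib 3.10.9.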

Additional observations from a re-analysis of the deposited data

How the results depend on the processing

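None of the 38 genes passed the threshold under any of the 11 alternatives in which it was tested; with a mean of at least 4 RPKM, Atf6, Ern1, Hspa13 and Trib3 were not tested and the genes apart and higher were 2. The alternatives gave adjusted p-values in limma from 0.249 to 1. Over all genes tested, limma called 0 genes, 1 with the replicate block, and 33 to 69 when a single library was left out, in fits where the lone library of a genotype was assumed to vary like the other genotype. Same-numbered libraries deviated together from their group means (correlation 0.51 over 10688 genes and 0.74 over the 38). Over all genes tested, the median absolute log2 difference between WT and cKO was 0.096 for the libraries numbered 1 and 0.116 for those numbered 2. It was 0.175 between the WT libraries and 0.193 between the cKO libraries. With 2 pairs and no label for the numbers, they were not treated as pairs in the main fit, which counts such a shared deviation as spread within a genotype. With the replicate block 2 of the 38 genes had an unadjusted p under 0.05 (limma), Dnajb9 (0.0192, adjusted 0.249) and Hsp90b1 (0.0455, adjusted 0.317). The genes with groups apart numbered 3 higher and 3 lower. With median-of-ratios scaling the lower ones were 6. With 1 library left out the genes apart were 7 to 15 higher and 8 to 16 lower. There, 1 library against 2 overlaps less often by construction. The shares of all genes tested under these settings are not given here, so these counts have no background beside them. The median log2 fold change of the 38 genes was -0.05 with median-of-ratios scaling and -0.018 to 0.011 with 1 library left out. With median-of-ratios scaling the sign changed for Calr (-0.037), Derl1 (-0.026), Pdia3 (-0.036) and Ppp1r15a (-0.005), and 11 of the 38 genes kept their sign under every alternative in which they were tested (Atf6, 1 of the 11, was not tested at 4 RPKM). Leaving out each library in turn changed the sign for 27 genes, whose log2 fold changes then ran as follows: Calr -0.021 to 0.024, Canx -0.26 to 0.12, Derl1 -0.053 to 0.075, Derl2 -0.041 to 0.038, Dnajb11 -0.17 to 0.13, Dnajc10 -0.15 to 0.34, Dnajc3 -0.21 to 0.14, Edem1 -0.091 to 0.071, Edem2 -0.23 to 0.022, Edem3 -0.14 to 0.097, Ern1 -0.21 to 0.028, Herpud1 -0.034 to 0.17, Hspa13 -0.49 to 0.10, Hspa5 -0.24 to 0.013, Hyou1 -0.15 to 0.058, Manf -0.14 to 0.26, Os9 -0.055 to 0.21, P4hb -0.02 to 0.12, Pdia3 -0.11 to 0.11, Pdia4 -0.13 to 0.045, Ppib -0.011 to 0.091, Ppp1r15a -0.044 to 0.11, Sec61a1 -0.049 to 0.032, Sel1l -0.11 to 0.013, Syvn1 -0.30 to 0.17, Trib3 -0.066 to 0.21, Xbp1 -0.18 to 0.003. The cause of the sign changes was not tested. Depth limits Trib3 most, at about 41 reads in its lowest library.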

Other observations

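Some genes of the pathway outside the 38 were too low to be tested but differed between libraries. Asns, the asparagine synthetase and a target of Atf4, was at 0.479 and 1.08 RPKM in WT replicates 1 and 2 and at 0.486 and 1.0 RPKM in cKO replicates 1 and 2, so that both libraries numbered 2 were the higher ones in each genotype, as for Hspa13 and Dnajb9. Derl3, the derlin of secretory cells, had 0.652 and 0.547 RPKM in the WT pools, and 1.83 and 0.810 RPKM in the cKO pools. Its high library, cKO replicate 1, also had the highest sums of macrophage (27.9 RPKM), erythroid (42.7 RPKM) and B cell markers (11.9 RPKM). Of the defining plasma cell markers, Sdc1 was at 0.204 RPKM there against 0.134, 0.0342 and 0.169 RPKM in WT replicates 1 and 2 and cKO replicate 2. Jchain was at 0.198 RPKM against 0.268, 0.273 and 0.179 RPKM. Both are near the floor and their reads were not estimated, so the order of the libraries is uncertain for them. The part of such other cells in the value of Derl3 was not tested. These genes were picked after their values were seen.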
